A study of Mus musculus with 7 samples.

Results

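Nuclear receptor genes were examined for H3K27me3, a repressive histone modification (histone H3 trimethylated at lysine 27) that Polycomb repressive complex 2 deposits. The 45 genes were a list of receptors of the NR1 to NR6 and NR0 subfamilies, out of 21631 protein-coding genes (Y-linked genes were left out). The list was chosen with earlier results of these data known. A gene was called marked when a called H3K27me3 peak shared at least 1 bp with either end of the gene extended by 1 kb. Epidermal progenitors were sorted from newborn mouse skin (postnatal day 0) as EpCAM-positive, Sca1-positive cells with high α6-integrin, and the mark was mapped by chromatin immunoprecipitation and sequencing. Control cells were compared with cells labelled Ring1a/b 2KO, which lack Ring1a and Ring1b, the products of Ring1 and Rnf2 and the enzymes by which Polycomb repressive complex 1 ubiquitinates histone H2A. Each genotype had 2 labelled libraries and 1 list of peaks. The labels do not state the alleles of the control mice or how the knockout was directed to cells. In the 2KO sample titles the modification is written H3K27me1, but it is H3K27me3 in the antibody label and in the name of the list, which was followed. Because a genotype is represented by 1 list, values have no replicate error and the genotypes were not tested against each other.

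Nuclear receptors are transcription factors with a zinc finger DNA-binding domain and a domain that binds small lipophilic ligands such as steroids, thyroid hormone, vitamin D and retinoids. Many NR1 members bind DNA as partners of a retinoid X receptor, many sites are built from the hexamer AGGTCA, and coactivators or corepressors are recruited according to ligand. In epidermis the retinoid, vitamin D, glucocorticoid and peroxisome proliferator-activated receptors are known for roles in differentiation, barrier formation and the hair cycle.

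The control list held 3631 peaks and the 2KO list 2340, with median widths of 4.76 and 5.51 kb. None of 8 basal epidermal markers and none of 5 suprabasal markers was marked in either list. In the control list 5 of 6 Merkel cell, 2 of 6 melanocyte, 3 of 6 dermal fibroblast, 2 of 4 endothelial and 0 of 4 immune markers were marked, where 10.1% of all genes were. In the 2KO list the counts were 3, 1, 2, 2 and 1, where 6.63% of all genes were marked, and the 1 immune marker was Cd207, with a 2KO peak of 33.0 kb. Of the bases of 2KO peaks at Cd207, 59.6% lay under control peaks, although no control peak reached its gene ends. The lists hold no read counts and no heights, so the depth is unknown and a gene without a peak is not shown to lack the mark. No expression was measured.

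Of the 45 receptor genes, 14 were marked in the control list (31.1%, 95% Wilson interval 19.5 to 45.7), where 10.1% of all protein-coding genes were marked. In the 2KO list 11 were marked (24.4%, 14.2 to 38.7), where the share over all genes was 6.63%. Both lists marked 9 genes (Pparg, Rorb, Rxrg, Nr2e1, Nr2f1, Esrrg, Nr3c2, Nr4a2 and Nr5a1), against 5.59% of all genes. The control list alone marked 5 (Vdr, Nr2f2, Pgr, Nr4a3 and Nr5a2), against 4.48% of all genes, and the 2KO list alone marked 2 (Rxrb and Nr0b2), against 1.04%. Thus 9 of 14 control-marked receptors kept a peak at a gene end (64.3%, 38.8 to 83.7), a share whose interval includes the 55.5% found over the 2180 control-marked genes. The intervals cover counting error only, and genes are not replicates of a genotype.

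Sequence is shown for 6 receptors on which this division turns: 2 pairs of paralogs that fell into different classes (Nr2f1 and Nr2f2, Nr4a2 and Nr4a3), the first and last annotated starts of Pparg, of which only the former lay under a peak, and Nr0b2, which had a peak in the 2KO list alone. Each stretch is the 250 bases upstream of an annotated start, read 5′ to 3′ on the strand of the gene, from RefSeq on GRCm38.p6, the same build as mm10, with every CG dinucleotide in capitals. The stretches lie at chr13:78198874-78199123 (minus strand), chr7:70366747-70366996 (minus), chr2:57124004-57124253 (minus), chr4:48045055-48045304 (plus), chr6:115360894-115361143 and chr6:115421816-115422065 (plus) and chr4:133553126-133553375 (plus).
Nr2f1: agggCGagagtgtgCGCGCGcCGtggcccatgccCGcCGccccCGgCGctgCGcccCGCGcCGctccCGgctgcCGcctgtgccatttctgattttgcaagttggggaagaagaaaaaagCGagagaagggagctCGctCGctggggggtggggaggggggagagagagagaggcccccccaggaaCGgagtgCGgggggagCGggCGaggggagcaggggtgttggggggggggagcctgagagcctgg
Nr2f2: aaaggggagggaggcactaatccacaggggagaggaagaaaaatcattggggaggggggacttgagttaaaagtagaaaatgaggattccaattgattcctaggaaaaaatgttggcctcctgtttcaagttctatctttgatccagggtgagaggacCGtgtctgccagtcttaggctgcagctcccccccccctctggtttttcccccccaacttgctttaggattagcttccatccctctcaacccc
Nr4a2: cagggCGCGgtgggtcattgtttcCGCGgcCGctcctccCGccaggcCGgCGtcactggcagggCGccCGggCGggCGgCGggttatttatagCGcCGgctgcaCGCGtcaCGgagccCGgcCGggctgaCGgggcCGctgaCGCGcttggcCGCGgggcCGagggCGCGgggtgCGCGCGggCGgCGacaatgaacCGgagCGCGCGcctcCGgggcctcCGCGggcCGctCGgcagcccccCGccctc
Nr4a3: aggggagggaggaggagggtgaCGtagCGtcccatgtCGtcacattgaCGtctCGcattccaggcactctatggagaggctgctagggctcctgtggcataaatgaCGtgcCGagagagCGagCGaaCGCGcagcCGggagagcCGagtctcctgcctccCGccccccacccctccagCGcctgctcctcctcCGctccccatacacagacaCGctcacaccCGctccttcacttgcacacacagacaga
Pparg, first start: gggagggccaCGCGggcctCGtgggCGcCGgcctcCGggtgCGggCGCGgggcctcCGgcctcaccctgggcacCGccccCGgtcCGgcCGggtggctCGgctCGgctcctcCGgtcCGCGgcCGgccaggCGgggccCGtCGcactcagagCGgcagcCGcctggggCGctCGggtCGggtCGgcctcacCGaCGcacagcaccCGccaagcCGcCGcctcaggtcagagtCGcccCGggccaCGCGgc
Pparg, last start: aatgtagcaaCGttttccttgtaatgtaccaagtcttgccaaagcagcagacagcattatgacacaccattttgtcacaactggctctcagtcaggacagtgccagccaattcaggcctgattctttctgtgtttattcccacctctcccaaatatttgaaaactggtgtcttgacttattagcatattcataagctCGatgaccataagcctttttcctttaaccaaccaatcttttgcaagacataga
Nr0b2: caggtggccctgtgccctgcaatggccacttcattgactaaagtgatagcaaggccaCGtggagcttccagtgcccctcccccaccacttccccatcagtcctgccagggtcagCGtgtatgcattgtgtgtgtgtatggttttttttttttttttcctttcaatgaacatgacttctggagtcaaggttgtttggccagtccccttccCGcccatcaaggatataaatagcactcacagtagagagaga
Within these 250 bases Nr2f1 held 22 CG dinucleotides and that of Nr2f2 held 1, although the windows at both starts lay under control peaks and under no 2KO peak. The stretch of Nr4a2 held 44 and lay outside the peaks of both lists. The stretch of Nr4a3 held 18, and its control peak began at 48045295. Thus only the last bases of that stretch, next to the start, lay under the peak. At Pparg the first start had 38 and the last had 2. The Nr0b2 stretch held 3.

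The widest domains among the receptor genes lay in the NR2 subfamily, which holds the retinoid X receptors, the hepatocyte nuclear factors and the orphan receptors of neural and mesenchymal development. Nr2f1, which encodes the orphan receptor COUP-TFI of brain patterning (chromosome 13, 78188971 to 78198873), lay wholly inside a control peak of 50.1 kb (78168810 to 78218906), the 11th widest of the 3631. In the 2KO list this domain was met by 3 separate peaks of 23.0, 5.70 and 12.3 kb, which together covered 79.9% of it. The gaps between them measured 1.19 and 7.21 kb. The larger gap, from the end of the second peak at 78197660 to the start of the third at 78204873, contained the upstream start of Nr2f1 shown above, whereas the downstream start at 78196449 lay under the second peak. Nr2e1, which encodes the orphan receptor Tlx of neural stem cells (chromosome 10, 42561963 to 42583590), was covered in full by a control peak of 42.3 kb and to 90.6% by a 2KO peak of 35.7 kb, the 24th and 11th widest of their lists. Of the Nr2e1 control peak, 92.1% lay under 2KO peaks. Nr2f2, which encodes COUP-TFII of vein and mesenchyme development (chromosome 7, 70351946 to 70366746), had a control peak of 6.17 kb across its 5′ end (70366521 to 70372691) and no 2KO peak overlapping it. That control peak covered 1.53% of Nr2f2, reached 5.95 kb beyond the gene and also met the long noncoding RNA gene B130024G19Rik. Nr2f6, the paralog of Nr2f1 and Nr2f2, had no peak within 50 kb in either list.

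**Figure D1:**
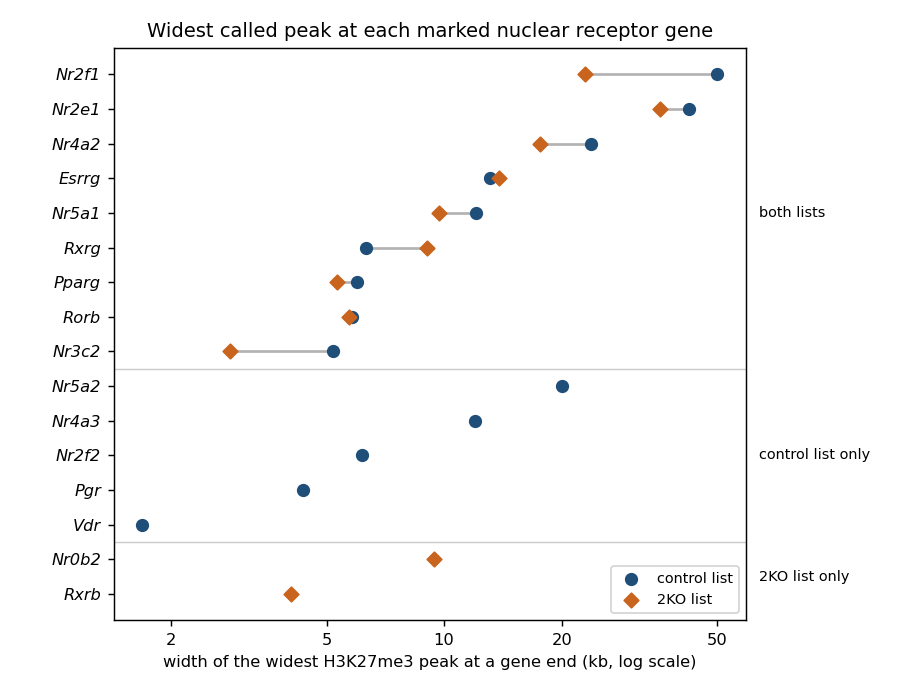
Width of the widest H3K27me3 peak at an end of each of the 16 marked nuclear receptor genes, in kb on a log axis, with control values as circles and 2KO values as diamonds, 1 list per genotype and no error bars. Where both lists marked a gene, the 2KO peak was wider at Rxrg and Esrrg and narrower at the other 7 genes. Ratios ran from 0.46 times the control width at Nr2f1 to 1.43 times at Rxrg. Merging peaks within 3 kb left 6 narrower and turned Nr2e1 to wider. There a separate upstream peak was joined in the 2KO list, whereas the matching control peak was not.

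The 3 retinoid X receptor genes, which encode the shared dimer partners, each fell into a different class. Rxrg, the form of muscle and nervous tissue (chromosome 1, 167598362 to 167639623), had a control peak of 6.31 kb at its 5′ end that lay wholly under a 2KO peak of 9.02 kb. Rxra, the main epidermal form (chromosome 2, 27676445 to 27763319), lay 443 kb from the nearest control peak and 806 kb from the nearest 2KO peak. Rxrb (chromosome 17, 34031812 to 34038403) met a 2KO peak of 4.06 kb at its 3′ end (34038158 to 34042215) and no control peak. That peak covered 3.73% of Rxrb and also marked Col11a2, a collagen gene, and the windows at the 2 starts of Rxrb lay 6.30 and 5.76 kb from it. The hepatocyte nuclear factor genes Hnf4a and Hnf4g, and the testicular and photoreceptor orphan receptor genes Nr2c1, Nr2c2 and Nr2e3, were unmarked in both lists.

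Of 18 NR1 genes, which encode the thyroid hormone, retinoic acid, peroxisome proliferator-activated, vitamin D and related receptors, 3 were marked in the control list (16.7%, 5.84 to 39.2), an interval that includes the 10.1% of all genes. Pparg, the master regulator of fat cell differentiation (chromosome 6, 115360879 to 115490404), had a control peak of 5.98 kb (115358652 to 115364630) and a 2KO peak of 5.32 kb (115358060 to 115363378) at its 5′ end. Of the control peak, 79.1% lay under the 2KO peak, and both peaks covered the 2 upstream starts of the gene. The window at the last start of Pparg lay 57.2 kb from the nearest control peak and 15.6 kb from a further 2KO peak of 1.48 kb inside the gene, which met no control peak. Rorb, an orphan receptor of retina and brain (chromosome 19, 18930609 to 19111196), had peaks of 5.81 kb (control) and 5.72 kb (2KO), shifted against each other so that 68.8% of the control peak was covered. The control peak contained the upstream start of Rorb, whereas the 2KO peak ended inside the gene, 0.517 kb short of its 5′ end. Vdr, the vitamin D receptor (chromosome 15, 97854427 to 97908296), was marked by 1 narrow control peak of 1.69 kb (97909147 to 97910831) that lay 0.85 kb upstream of the gene, and no 2KO peak lay within 255 kb. The call at Vdr ended when the peak had to touch the gene itself.

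The other NR1 genes had no peak at their ends in either list. They comprised the thyroid hormone receptors (Thra and Thrb), the retinoic acid receptors (Rara, Rarb and Rarg), Ppara and Ppard, the circadian repressors Nr1d1 and Nr1d2, Rora, the liver X receptors (Nr1h2 and Nr1h3), the bile acid receptor Nr1h4, and the xenobiotic receptors Nr1i2 and Nr1i3. Thrb was the closest to being marked, with a control peak of 2.66 kb (chromosome 14, 17661350 to 17664013) inside the gene, 2.12 kb from its 5′ end. That peak began 0.389 kb after an annotated start of Thrb and also marked another protein-coding gene, LOC115488350. Thrb fell under the control list only with a window of 5 kb, with peaks anywhere in the gene and with annotated starts. Rarg, the main retinoic acid receptor of epidermis, lay 96.2 kb from the nearest control peak and 103 kb from the nearest 2KO peak. Ppard, a regulator of keratinocyte differentiation, lay 62.5 kb from the nearest control peak and 574 kb from the nearest 2KO peak. Over all 29 unmarked receptors the median distance to the nearest peak was 191 kb in the control and 341 kb in the 2KO list, and 26 of the 29 stayed unmarked in every alternative in which they could be placed.

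Among 8 NR3 genes, which encode the steroid hormone receptors and the estrogen-related receptors, 3 were marked in the control list (37.5%, 13.7 to 69.4, against 10.1% of all genes). Esrrg, an orphan receptor of oxidative metabolism (chromosome 1, 187608510 to 188214885), had peaks at its 5′ end that differed by less than 1 kb in position and width, 13.1 kb in control (187600592 to 187613683) and 13.8 kb in 2KO (187600611 to 187614447). A second control peak inside Esrrg, of 2.88 kb (187650557 to 187653434), covered 2 further starts of the gene and met no 2KO peak. Pgr, the progesterone receptor (chromosome 9, 8898900 to 8968611), had a control peak of 4.36 kb at its 5′ end (8898897 to 8903257) and its nearest 2KO peak lay 352 kb away. Nr3c2, the mineralocorticoid receptor (chromosome 8, 76898083 to 77245012), had a control peak of 5.19 kb and a 2KO peak of 2.83 kb, and 53.1% of the control peak was covered. The promoter window at the annotated start of Nr3c2 (76902330) lay beyond both peaks, 0.612 kb from the former and 3.05 kb from the latter.

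Nr3c1, the glucocorticoid receptor, and Esr2 and Esrra had no peak in the gene. The estrogen receptor gene Esr1 (chromosome 10, 4611989 to 5005633) was unmarked at its ends and had a control peak of 2.83 kb inside the gene (4710237 to 4713069), starting 0.078 kb after its second annotated start, with no 2KO peak in the gene. Esrrb, known from pluripotent cells (chromosome 12, 86361117 to 86521628), was likewise unmarked at its ends. It had an internal control peak of 14.6 kb (86418261 to 86432838) and an internal 2KO peak of 11.8 kb (86417346 to 86429169), both over its second start. The 3 estrogen-related receptor genes thus comprised Esrrg with peaks at its 5′ end in both lists, Esrrb with internal peaks in both lists and Esrra with none.

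**Figure D2:**
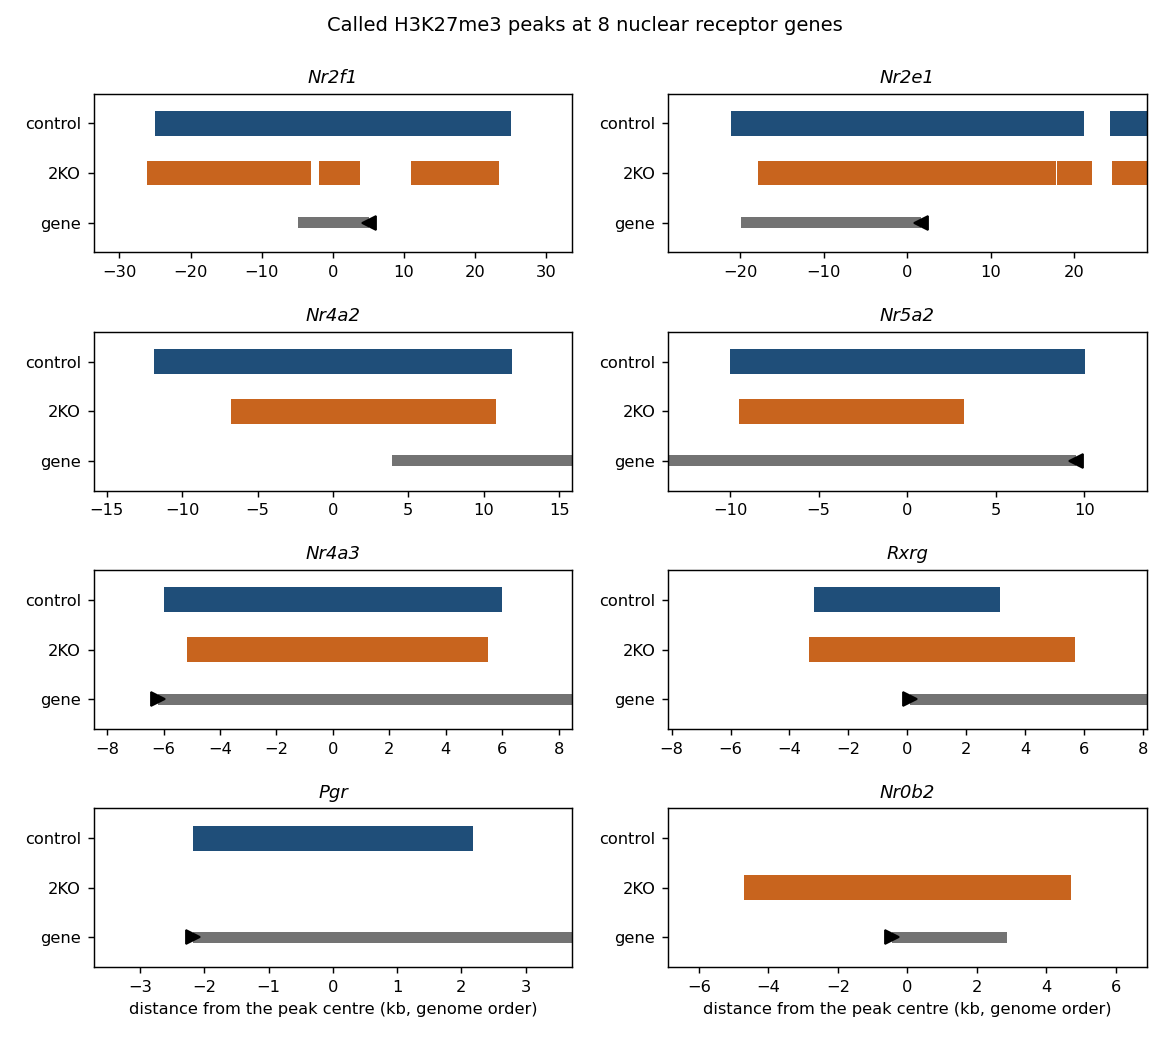
Called peaks (upper bars, control and 2KO) and the gene (grey bar, with an arrowhead at its 5′ end pointing in the direction of transcription) at 8 nuclear receptor genes, against distance in kb from the centre of the peaks that mark the gene, in genome order; bars are cut at the panel edge and the 5′ end of Nr4a2 lies beyond the right edge. The 50.1 kb Nr2f1 domain is met by 3 separate 2KO peaks, the 2KO peaks at Nr5a2 and Nr4a3 stop short of the 5′ ends, Pgr has no 2KO peak and Nr0b2 no control peak.

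The NR4 genes encode orphan receptors that are induced as immediate early genes. Nr4a2 (chromosome 2, 57106830 to 57124003) was marked over its 3′ part by a control peak of 23.8 kb (57091038 to 57114829) and a 2KO peak of 17.6 kb (57096164 to 57113738), which lay wholly within the former. Its annotated start lay outside both, with the promoter window 9.12 kb from the control peak and 10.2 kb from the 2KO peak. Nr4a3 (chromosome 4, 48045078 to 48086447) had a control peak of 12.0 kb starting 0.216 kb inside the gene and a 2KO peak of 10.6 kb within the former, covering 88.9% of it. The 2KO peak of Nr4a3 began 38 bp beyond the 1 kb window, so the gene counted as marked in the control list only. Nr4a1 had no peak within 162 kb in either list.

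Both NR5 genes, which encode regulators of steroid hormone synthesis and of liver and pancreas genes, carried domains in both lists. Nr5a1, the steroidogenic factor gene (chromosome 2, 38692656 to 38714542), had a control peak of 12.1 kb and a 2KO peak of 9.70 kb, with 77.8% of the control peak covered. Both peaks lay inside the gene, 0.764 and 0.458 kb short of its higher-coordinate end, and both calls ended when the peak had to touch that end. The same pair of peaks lay 9.59 and 9.29 kb from Nr6a1, the germ cell nuclear factor gene next to it, which had no peak of its own. Nr5a2, the liver receptor homolog gene (chromosome 1, 136842562 to 136960448), had a control peak of 20.0 kb that reached beyond its 5′ end (136940885 to 136960913) and a 2KO peak of 12.7 kb (136941383 to 136954080) covering 63.4% of it. The 2KO peak contained the downstream start of Nr5a2 at 136953630, and the window at the upstream start at 136960448 lay 6.32 kb from it. Nr5a2 was therefore counted under the control list only, and it became marked in both lists when peaks anywhere in the gene, or at any annotated start, were accepted.

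Nr0b2, which encodes the small heterodimer partner, a receptor without a DNA-binding domain that acts in bile acid metabolism (chromosome 4, 133553376 to 133556686), showed the reverse arrangement. A 2KO peak of 9.43 kb (133549106 to 133558532) covered the whole gene and met no control peak. The nearest control peak lay 48.9 kb away, at the gene Trnp1, and was itself met by a 2KO peak of 8.61 kb (133498666 to 133507276). The Nr0b2 class was the same in all alternatives. Rxrb, the other receptor with a peak in the 2KO list only, was unmarked when annotated starts were used.

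The 14 control peaks at receptor genes covered 209 kb, with a median width of 9.14 kb (1.69 to 50.1) and a mean of 14.9 kb, compared with a median of 5.45 kb and a mean of 7.97 kb for the 2010 control peaks at any protein-coding gene. The 11 2KO peaks at receptor genes covered 136 kb, with a median of 9.43 kb and a mean of 12.4 kb, compared with 6.44 and 8.28 kb for the 1322 2KO peaks at any protein-coding gene. Of the control bases, 76.7% lay under 2KO peaks, compared with 55.5% over all peaks at protein-coding genes. At genes marked in both lists these shares were closer, 83.1% for the receptors and 78.7% for all protein-coding genes. Wide peaks weigh most in such shares. Control peaks of 20 kb or more made up 4 of 14 at receptor genes (Nr2f1, Nr2e1, Nr4a2 and Nr5a2) and 7.76% of control peaks at all genes. All 14 control peaks marked 1 protein-coding gene each, as did 88.8% of control peaks at any gene. At the 9 receptors marked in both lists, the log2 ratio of the widest 2KO to the widest control peak had a median of -0.24, with 7 narrower and 2 wider in 2KO cells. The direction at Nr2e1 turned when peaks within 3 kb were merged, which left 6 narrower and 3 wider. There the merged 2KO peak measured 55.3 kb (42564001 to 42619294) against 42.3 kb in control. It joined the 2 pieces of the 2KO domain, 148 bp apart, and also the separate 2KO peak of 12.8 kb upstream. The matching control peak of 13.4 kb lay beyond the merging distance and stayed separate, so unlike sets of peaks are compared. Over the 1210 genes marked in both lists the median was 0.08, with 681 wider and 529 narrower. At Nr2f1 the ratio compares only the widest of 3 pieces. These are descriptions of 2 lists, and no difference between the receptors and other genes was tested.

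Annotated starts gave a finer view, since the promoter table holds 62 start windows of 300 bp for 41 of the 45 genes (not Hnf4g, Nr3c1, Nr5a1 and Thra). Under control peaks lay 16 windows of 11 genes (26.8% of the 41, against 6.88% of all genes of the promoter table). The 2KO peaks met windows of 8 genes (19.5%, against 4.05%). Of the 16 control-covered windows, 8 also lay under 2KO peaks (50.0%), compared with 51.7% of the 2235 control-covered windows of the whole table. The 8 windows under control peaks alone belonged to Rorb, Nr2f1, Nr2f2, Esrrg (2 windows), Pgr, Nr4a3 and Nr5a2. In 4 of the 8 (Rorb, Nr2f1, Nr4a3 and Nr5a2) the control domain was still met by a 2KO peak that left out the start, compared with 21.4% of such windows in the whole table. The start windows of these 4 genes lay 0.468, 1.16, 0.762 and 6.32 kb from the nearest 2KO peak. Pparg, Rorb, Rxrg, Esrrg and 1 further gene, Esrrb, had starts both inside and outside control peaks.

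**Figure D3:**
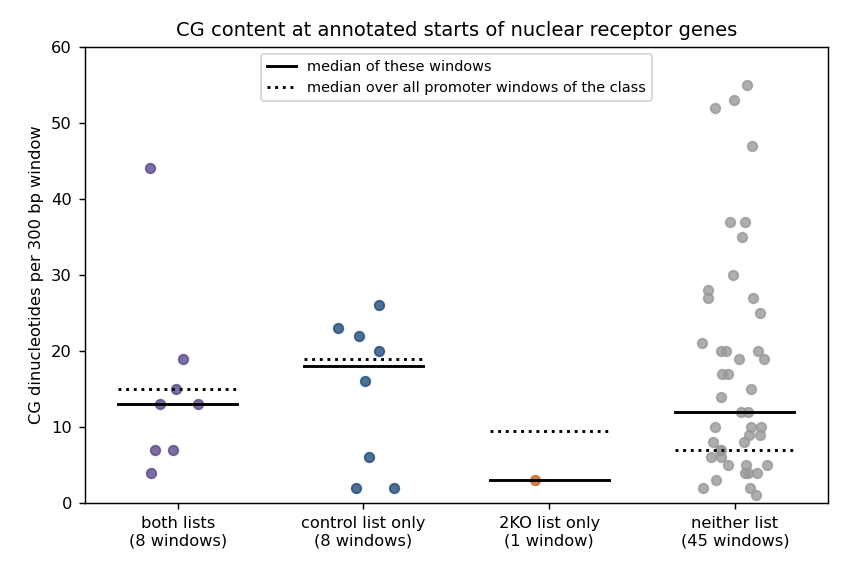
Number of CG dinucleotides in each 300 bp start window of the nuclear receptor genes (points, jittered sideways), by the lists whose peaks overlap the window, with solid lines for the median of these windows and dotted lines for the median over all promoter windows of that class. The median is 13 for windows of both lists, 18 for those of the control list only and 12 for those of neither list, and the windows with the most CG dinucleotides lie under no peak.

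The number of CG dinucleotides at receptor starts overlapped widely between covered and uncovered windows. The median number of CG dinucleotides per window was 13 under peaks of both lists (8 windows, 4 to 44), 18 under control peaks alone (8 windows, 2 to 26) and 12 under neither (45 windows, 1 to 55). Over the whole promoter table the medians were 15, 19 and 7. The 4 richest windows were those of Rxra with 55, Nr2f6 with 53, Nr4a2 with 52 and Rxrb with 47, none of them under a peak, followed by the first start of Pparg with 44. The receptor hexamer AGGTCA, searched on both strands, occurred in 11 of 62 receptor windows (17.7%) and in 16.2% of all windows. The letters GGGCGG, also searched on both strands, occurred in 28 of 62 (45.2%) and in 35.9% of all windows. A match or its absence describes only these letters in these windows.

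Genes that make or remove the ligands, and genes of partner proteins, were taken from 5 further lists. Of 17 genes of retinoid transport and metabolism, 8 were marked in the control list (47.1%, against 10.1% of all genes). Of these 8, 5 were marked in both lists (62.5%, a share near the 55.5% of all control-marked genes). Cyp26a1 and Cyp26c1, which encode enzymes that clear retinoic acid, lay under 1 control peak of 23.8 kb and 1 2KO peak of 22.3 kb. Aldh1a2, which encodes an enzyme of retinoic acid synthesis, had peaks of 23.5 and 15.1 kb, and Rbp4, for the retinol carrier of plasma, of 7.25 and 7.49 kb. The cellular retinoic acid binding protein genes Crabp1 (8.22 kb) and Crabp2 (5.53 kb), and Aldh1a3 (5.08 kb), had control peaks that met no 2KO peak.

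Of 22 genes of vitamin D, thyroid hormone and steroid metabolism found in the gene table, 7 were marked in the control list (31.8%, against 10.1% of all genes). Of these 7, 3 were marked in both lists (42.9%, against 55.5% of all control-marked genes), and 1 further gene, Hsd17b1, was marked in the 2KO list only (3.65 kb; 4.55% of the list, against 1.04% of all genes). Cyp24a1 and Cyp27b1, which encode the enzymes that inactivate and activate vitamin D, had peaks in both lists (7.97 and 10.7 kb, and 3.59 and 4.18 kb), unlike Vdr itself. Srd5a2, a steroid reductase gene, had 7.52 and 9.88 kb. The thyroid hormone deiodinase gene Dio3 (10.0 kb), Cyp11a1 (3.05 kb) and Cyp27a1 (2.44 kb) had control peaks and no 2KO peak at their ends.

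Of 22 coactivator and corepressor genes, 1 was marked (4.55%, against 10.1% of all genes in the control list), Ppargc1a, a coactivator of mitochondrial genes, under a control peak of 9.68 kb and a 2KO peak of 12.2 kb. Of 18 lipid and bile acid target genes, Fgf15 (7.21 and 7.03 kb) and Abcg1 (2.33 and 2.11 kb) were marked, both in both lists (11.1%, a share near the 10.1% of all genes in the control list). Of 15 circadian clock genes, 4 were marked in the control list (26.7%, against 10.1% of all genes) and 0 in the 2KO list (against 6.63% of all genes): Bhlhe41 (7.57 kb), Nfil3 (7.55 kb), Hlf (6.05 kb) and Npas2 (1.71 kb). Their control peaks met no 2KO peak. The clock repressors Nr1d1 and Nr1d2 among the receptors were unmarked in both lists.

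**Figure D4:**
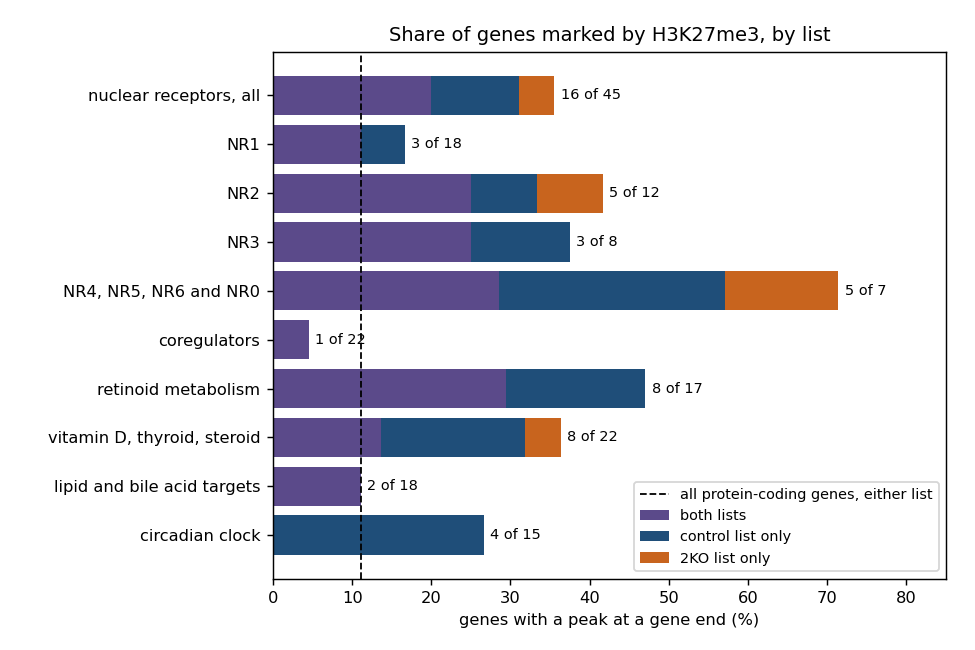
Share of genes with a peak at a gene end, in percent, for the 45 nuclear receptor genes, their subfamilies and 5 lists of related genes, split by list; numbers beside the bars give marked genes of all genes, and the dashed line is the share over all protein-coding genes in either list. Of the receptors 16 of 45 were marked in either list, of the retinoid genes 8 of 17 and of the coregulators 1 of 22.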

How the data were processed

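Libraries of control and Ring1a/b 2KO cells (2 each) were analysed through 1 deposited peak list per genotype; the 1 control input library and the 1 input and 1 immunoprecipitated library of Eed cKO cells were not analysed here. Reads were handled with Bowtie2 2.3.3.1 and SAMtools 1.9 on mm10 according to the submitters' processing notes. What the authors deposited is the chromosome, start and end of each peak, per the file headers, with no score. The caller, its settings, any use of input and any pooling of libraries: not given in the sources used here. How calling and depth affect the number and width of peaks was not tested. Start positions were taken as 0-based, and 1 was added for printing.

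Gene positions came from a RefSeq table of GRCm38.p6, in which all 45 members were found, and strand and starts from a RefSeq promoter table (250 bases before to 50 after each start; 41 members matched). Of 134 symbols in the related and marker lists, 133 matched. Cover was counted in base pairs with Python 3.11.15, numpy 2.4.6 and pandas 2.3.3, Wilson intervals with scipy 1.17.1 and figures with matplotlib 3.10.9. The overlap code was tested on simulated lists. The members and lists were chosen with earlier results of these data known. Named were all marked members, unmarked members with a peak in the gene or within 50 kb, and up to 4 genes per related list and class at the widest peaks, of which 1 is not reported here; distances of other members, and the sequences printed, were chosen after their values were seen. Alternatives changed the window, the target at genes, the peaks used, the overlap required and the merging of peaks.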

Additional observations from a re-analysis of the deposited data

How the results depend on the processing

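No paired analysis was possible because a genotype is represented by a single list; leaving out single libraries could not be done either. Over 8 alternatives, 55 of 56 recomputed counts and shares of receptor genes stayed within 1.5 times the count or within the interval of the share. The exception was the number marked in the 2KO list only, which was 2 and became 1 with annotated starts, since the peak at Rxrb lies at its 3′ end. The control count of 14 ranged from 11 to 17 and the 2KO count of 11 from 9 to 14, and the share kept from 58.3 to 70.6%. Over all genes tested the control share ranged from 7.46 to 12.3%, the 2KO share from 5.44 to 9.02% and the share kept from 54.2 to 63.0%. The class was the same in all alternatives for 5 of 9 genes of both lists (Pparg, Rxrg, Nr2e1, Nr2f1 and Esrrg), 2 of 5 of the control list only (Nr2f2 and Pgr) and 1 of 2 of the 2KO list only (Nr0b2). Vdr was unmarked with a window of 0, with 500 bp required, with the widest 75% of peaks and with equal numbers of peaks. The window decided Nr4a3, which was in both lists at 5 kb and in neither at 0. Rorb lost its 2KO call with a window of 0 and with 500 bp required, and Nr5a1 lost both calls and its control call under these, respectively. Annotated starts put Nr3c2 under the control list only and Nr4a2 under neither. Covered shares at single genes changed by 10 percentage points or more at Nr3c2 alone, to 0% with the widest 75% of peaks. The widest 2KO peak at Nr2e1 grew to 55.3 kb after merging within 3 kb, against 42.3 kb in control, so it turned from narrower to wider. That merge took in the separate 2KO peak of 12.8 kb upstream, whereas the matching control peak of 13.4 kb was not joined. Depth is unknown, so a missing peak gives no limit on the mark.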

Other observations

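Outside the windows at gene ends, further peaks lay near several receptor genes. Upstream of Nr2e1, beyond its 42.3 kb domain, 2 more control peaks of 13.4 kb each (chromosome 10, 42606218 to 42619589 and 42624386 to 42637815) were matched by 2KO peaks of 12.8 kb (42606513 to 42619294) and 11.4 kb (42626420 to 42637826). Hnf4a had a peak upstream of its 5′ end in both lists that marked no protein-coding gene, 3.55 kb wide in control and 23.1 kb away (chromosome 2, 163480188 to 163483738), and 8.65 kb wide in 2KO and 20.9 kb away (163477258 to 163485905). Nr2f2, which had no 2KO peak at its ends, had a 2KO peak of 5.20 kb that lay 23.4 kb beyond its 3′ end (chromosome 7, 70323312 to 70328508). It marked no protein-coding gene and lay wholly inside a control peak of 23.2 kb (70315900 to 70339072), beyond which a further control peak of 5.46 kb (70305325 to 70310789) had no 2KO peak. Beyond the 3′ end of Rxrg, 4 further control peaks of 6.06, 6.07, 2.90 and 16.4 kb (chromosome 1, 167657269 to 167700856) began within 50 kb of the gene. No 2KO peak was called within 50 kb of that end. The 16.4 kb control peak extended past this distance, for which 2KO peaks are not given here. The control peak 16.1 kb from Nr1i3 (5.42 kb) marked Pcp4l1.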
